A study of Gallus gallus with 6 samples.

Results

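The insulin and IGF axis was examined in ICP1, an immortalized chicken preadipocyte line, 48 h after transfection. The genes were chosen by name: rows of the authors' deposited table named for an IGF ligand, a receptor or one of the binding proteins IGFBP2, IGFBP3, IGFBP4, IGFBP5 and IGFBP7. Of 10 names given, 9 had a row, out of 18495 genes in all. IGF1 was not analysed here. For the 3 EV libraries wells received pCMV-myc without an insert, and for the 3 KLF2 libraries pCMV-myc-KLF2, which carries the Krüppel-like transcription factor KLF2 behind a viral promoter. The wells shared 1 line, one culture medium with serum and 1 time point, so a p-value here weighs a difference against the variation of wells of that line. The question of the series was whether KLF2 acts on adipogenic regulation.

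IGF1 and IGF2 are secreted relatives of insulin that signal through the tyrosine kinase receptor IGF1R, while insulin signals through its close relative INSR. Both receptors work through insulin receptor substrates to the PI3K and AKT kinases, and this route drives proliferation of preadipocytes and lipid storage in maturing fat cells. IGFBPs hold most IGF outside cells and release it when proteases cut them. IGF2R is the cation-independent mannose 6-phosphate receptor, which sorts lysosomal enzymes. In mammals it also clears IGF2, but the chicken protein is known to lack high-affinity binding of IGF2.

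Libraries held 13255169 to 14168807 assigned reads each. KLF2 had normalized counts (reads divided by a size factor per library, by the authors) of 1093, 675 and 697 (EV 1 to 3) against 1052, 1618 and 2412 (KLF2 1 to 3). EV 1 lay above KLF2 1, so the groups overlapped in the transfected gene itself. The log2 fold change of 1.00 (SE 0.31) did not pass the threshold in limma (unadjusted p = 0.0126, adjusted p = 0.962). Its unadjusted p lay under 0.05 in 14 of 14 alternative settings given below. By exact two-sided permutation of the 6 libraries p was 0.2, where 3 against 3 cannot go below 0.1. Plasmid and chromosomal reads were counted together. Libraries did not sort by group: the first principal component over the 10893 genes whose mean reached 20 held 67.1% of the variance, with scores of 38.5 in EV 1 and 27.1 in KLF2 3, from -5.52 to -1.997 in EV 2 and EV 3, and -15.6 and -42.5 in KLF2 2 and KLF2 1. The same 2 libraries, EV 1 and KLF2 3, had the most reads from ribosomal RNA genes, 0.350% and 0.131% against at most 0.0215% in the others. Of 14 preadipocyte and fibroblast markers 12 were found and 10 had at least 1 TPM, a level per gene length defined below. VIM and COL1A1 were among the high ones, and the regulators DLK1 and EBF2 lay under 1 TPM. The summed level of that list was 15158 to 15799 TPM in EV and 14110 to 15282 TPM in KLF2 libraries. Summed levels of the 3 epithelial and 3 hepatocyte markers stayed under 1 TPM and at or under 2.501 TPM respectively. For the 5 adipocyte markers the sum was 10.5 to 13.0 TPM in EV and 6.63 to 10.2 TPM in KLF2 libraries. It was mostly FABP4, the only 1 of the 5 with at least 1 TPM, at low mean normalized counts of 31.2 in EV and 23.9 in KLF2 libraries. These sums did not overlap between groups, and the difference was not tested. Single genes did not overlap between groups in 6.65% of all genes tested below. Over the 6 libraries, sums lay between 5.95 and 8.97 TPM for endothelial, 8.14 and 12.4 TPM for leukocyte, 0.413 and 3.26 TPM for muscle and 11.04 and 31.5 TPM for neural markers, the last mostly TUBB3.

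Levels were first compared per gene length, as TPM (reads per base of gene, scaled to one common total in each library) computed from the recovered reads and the deposited gene lengths. IGF2R and IGFBP2 were the most abundant transcripts of the axis, at 60.8 ± 11.04 and 57.9 ± 20.4 TPM (SD over 6 libraries). IGF2R lay above 80.9% of the genes in the table and IGFBP2 above 80.0%. Their order held in 4 of 6 libraries, so they did not differ beyond their spread. Both stood apart from every other gene of the axis, which lay at or below 23.9 TPM in each library, against at least 33.1 TPM for IGFBP2 and 45.8 TPM for IGF2R.

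IGF1R, IGFBP3, IGFBP4 and IGFBP5 formed a middle tier, with mean levels of 15.6, 15.4, 13.9 and 13.3 TPM. Each neighbouring pair in that order held in 3 of 6 libraries, so neighbours did not differ beyond their spread, while IGF1R lay above IGFBP5 in 6 of 6. INSR followed at 8.75 ± 1.68 TPM and IGF2 at 7.92 ± 1.24 TPM (SD over 6 libraries). These again swapped places in 3 of 6 libraries. IGFBP7 was lowest at 5.33 ± 0.94 TPM, under IGF2 in 5 of 6 libraries. In bulk RNA, fewer cells expressing a gene and less RNA per cell cannot be told apart. Every gene of the axis was detected in each library, with 23 to 2918 reads.

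**Figure D1:**
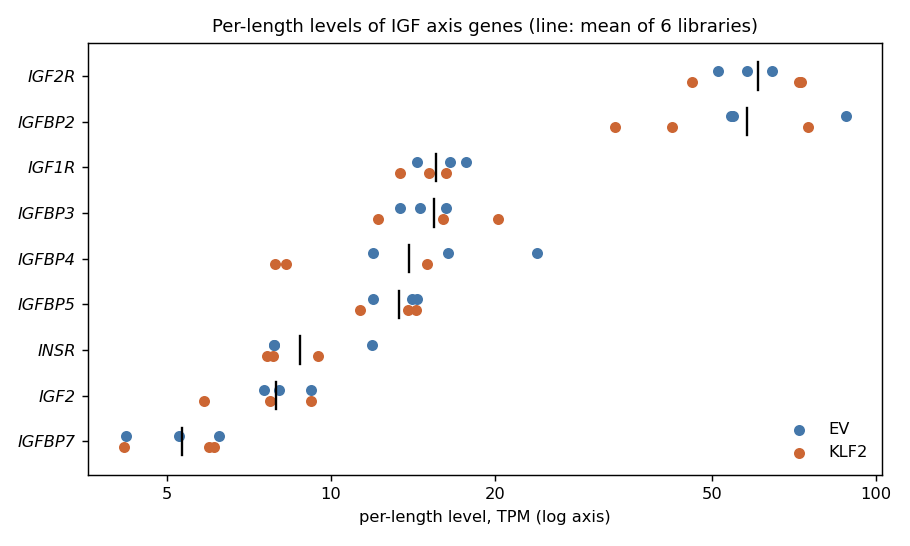
Level per gene length in TPM on a log axis for the 9 genes of the insulin and IGF axis, one point per library (blue EV, orange KLF2), with a black line at the mean of 6 libraries. IGF2R (60.8 TPM) and IGFBP2 (57.9 TPM) stand apart from the other genes, of which IGFBP7 (5.33 TPM) is lowest.

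None of the 9 genes passed the threshold between KLF2 and EV libraries. In limma on log2(normalized count + 1), with Benjamini-Hochberg adjustment over 16765 tested genes and a threshold of 0.05, 0 of 9 passed, where 0% of all tested genes did. All 9 were among the genes tested. At an unadjusted p under 0.05 the count was again 0 of 9, beside 2.11% of all tested genes (354 genes). This count was 2 of 9, IGFBP2 and IGFBP4, without KLF2 3 and also without EV 1 and KLF2 3. Over all tested genes it was then 2081 of 16996 and 1712 of 17061. It was 1 of 9, IGFBP4, without EV 3 and with no filter on low values, beside 312 of 16937 and 405 of 18495 genes. Groups overlapped in all 9 genes; they did not overlap in 6.65% of all tested genes. In mean, 6 of 9 genes were lower and 3 higher in KLF2 libraries, with a median log2 fold change of -0.12 beside -0.0060 for all tested genes. Adjusted p in limma ran from 0.962 to 0.991. In edgeR and in DESeq2 on the recovered reads 0 genes passed as well, with 150 of 11860 (1.26%) and 173 of 18495 (0.935%) at an unadjusted p under 0.05.

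The ligand measured here was IGF2, ENSGALG00010024580, on chromosome 5 from 13375704 to 13390733 on the plus strand in GRCg7b. Its normalized counts were 80.9, 85.6 and 94.6 (EV 1 to 3) against 58.9, 80.8 and 102 (KLF2 1 to 3). KLF2 libraries held both the lowest and the highest value, and the EV values lay between them. The group means were 87.0 ± 6.97 in EV and 80.6 ± 21.7 in KLF2 libraries (SD, n = 3), a log2 fold change of -0.14 (95% interval -0.74 to 0.46, SE 0.28). This interval covers KLF2 levels from 0.598 to 1.38 times those of EV.

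IGF1R, which transmits the signals of both IGFs, is ENSGALG00010018730 on chromosome 10 from 16703869 to 16844367 on the minus strand. It had normalized counts of 401, 325 and 361 (EV 1 to 3) against 323, 297 and 384 (KLF2 1 to 3). EV 1 and KLF2 3 were its highest libraries. Its log2 fold change was -0.12 (SE 0.18), and the 95% interval in folds ran from 0.700 to 1.21.

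INSR, the insulin receptor, is ENSGALG00010027254 on chromosome 28 from 4564494 to 4599443 on the minus strand, on the same chromosome as KLF2. It had normalized counts of 278, 182 and 177 (EV 1 to 3) against 172, 215 and 185 (KLF2 1 to 3). One library, EV 1, lay above the rest. The log2 fold change was -0.13 (SE 0.23) and turned to 0.080 without EV 1.

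IGF2R is ENSGALG00010006351 on chromosome 3 from 45169354 to 45223705 on the minus strand. It had normalized counts of 2204, 2479 and 2665 (EV 1 to 3) against 2944, 3022 and 2048 (KLF2 1 to 3). KLF2 1 and KLF2 2 lay above every EV library and KLF2 3 below them all. The log2 fold change was 0.11 (95% interval -0.26 to 0.47, SE 0.17).

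**Figure D2:**
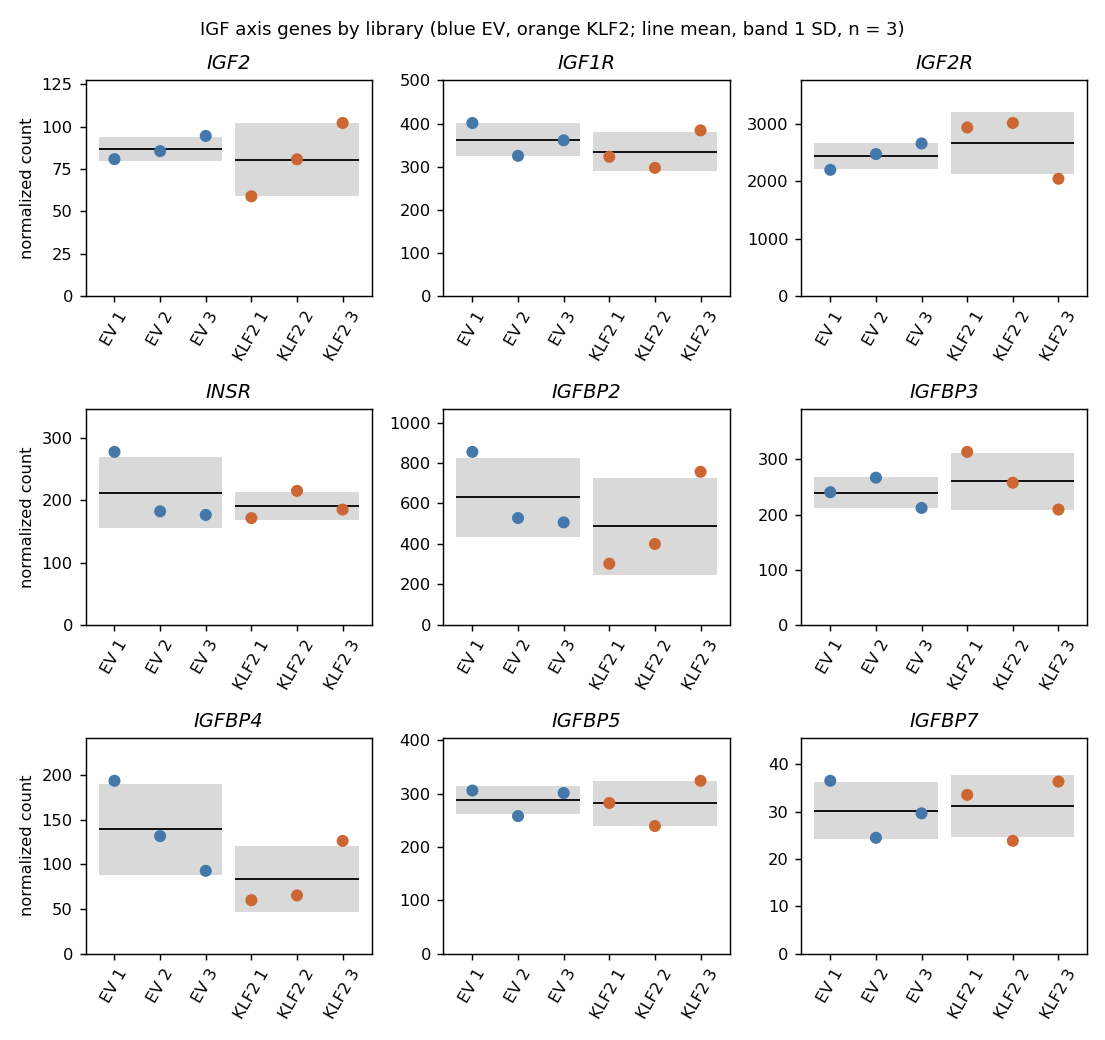
Normalized counts of the 9 genes in each library, with the axis from 0, one panel per gene (blue EV, orange KLF2). Lines are group means and bands 1 SD (n = 3). The groups overlap in every panel, and the group means of IGFBP4 are 139 in EV and 83.8 in KLF2 libraries.

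On the log2 scale IGFBP4 and IGFBP2 had the largest differences in mean of the 9 genes, and the other 3 binding proteins lay between -0.04 and 0.10. IGFBP4, a soluble inhibitor of IGF action that proteases such as PAPPA cleave in mammals, is ENSGALG00010022511 on chromosome 27 from 4441053 to 4446307 on the plus strand. Its normalized counts were 193, 131 and 92.7 (EV 1 to 3) against 59.9, 65.2 and 126 (KLF2 1 to 3). KLF2 1 and KLF2 2 lay below every EV library, while KLF2 3 lay among the EV libraries. The means were 139 ± 50.7 in EV and 83.8 ± 36.8 in KLF2 libraries (SD, n = 3), 0.602 times as high in KLF2. The log2 fold change was -0.74 (95% interval -1.49 to 0.00034, SE 0.34), with an unadjusted p of 0.0501 in limma (adjusted p = 0.962). By exact permutation of the 6 libraries, two-sided, p was 0.2, and 3 against 3 cannot go below 0.1. IGFBP4 overlaps 714 bases of ENSGALG00010022502 on the minus strand, a gene with mean normalized counts of 2.98 in EV and 5.40 in KLF2 libraries. Nothing in the protocols marks strand, so reads from the shared stretch cannot be told apart.

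IGFBP2, which binds IGF2 with high affinity and is known in mice to restrain fat cell development, is ENSGALG00010019282 on chromosome 7 from 22879237 to 22931488 on the minus strand. Its normalized counts were 855, 528 and 506 (EV 1 to 3) against 303, 400 and 757 (KLF2 1 to 3). As for IGFBP4, KLF2 1 and KLF2 2 lay below the EV libraries, and KLF2 3 lay above EV 2 and EV 3. Means were 630 ± 195 in EV and 486 ± 239 in KLF2 libraries (SD, n = 3). The log2 fold change was -0.44 (95% interval -1.24 to 0.36, SE 0.35), with p = 0.4 by exact two-sided permutation.

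IGFBP2 and IGFBP4 varied more between wells of the same group than most genes. Their within-group SD on the log2 scale was 0.56 and 0.55, above that of 91.3% and 90.9% of those 10893 genes, where the median was 0.23. IGF1R and IGFBP5 were the steadiest of the axis, with SDs of 0.17 and 0.18.

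IGFBP5, a matrix-bound binding protein, is ENSGALG00010019277 on chromosome 7 from 22855222 to 22875846 on the plus strand. It lies tail to tail with IGFBP2, with 3390 bases between them. Its normalized counts were 306, 258 and 301 (EV 1 to 3) against 282, 239 and 324 (KLF2 1 to 3). The groups interleaved, with a log2 fold change of -0.04 (SE 0.19) and a 95% interval in folds from 0.728 to 1.302. Per length, IGFBP2 was 2.40 to 6.26 times as abundant as its neighbour, with the lowest ratio in KLF2 1 and the highest in EV 1.

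IGFBP3, the main carrier of IGFs in blood, is ENSGALG00010008429 on chromosome 2 from 54603433 to 54621697 on the minus strand. It had normalized counts of 241, 267 and 212 (EV 1 to 3) against 314, 258 and 209 (KLF2 1 to 3). Here KLF2 1 was the highest library and KLF2 3 the lowest. For IGFBP2 and IGFBP4, KLF2 1 was the lowest library and EV 1 the highest. The log2 fold change was 0.10 (95% interval -0.35 to 0.56, SE 0.21).

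IGFBP7, a relative that binds IGFs only weakly, is ENSGALG00010003660 on chromosome 4 from 48670093 to 48686869 on the plus strand. It had normalized counts of 36.5, 24.5 and 29.6 (EV 1 to 3) against 33.5, 23.8 and 36.3 (KLF2 1 to 3). The groups covered the same range, with a log2 fold change of 0.04 (SE 0.35). It overlaps 3027 bases of POLR2B, a subunit of RNA polymerase II on the other strand. POLR2B had mean normalized counts of 1687 in EV and 1720 in KLF2 libraries, far above those of IGFBP7, and the part of reads from the shared stretch was not tested. The other 7 genes of the axis overlap no gene of the table.

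**Figure D3:**
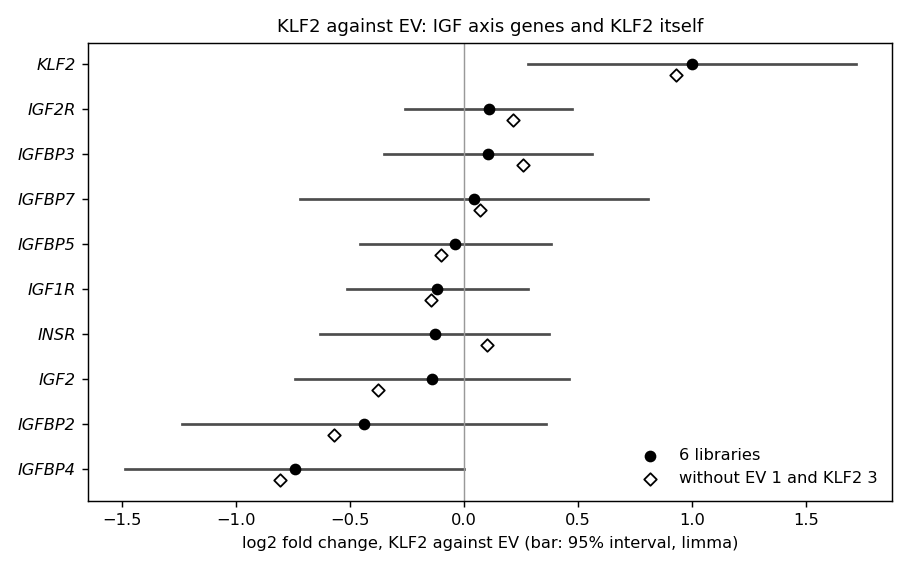
Log2 fold change of KLF2 against EV libraries for the 9 genes and for KLF2 itself; dots use 6 libraries, bars are 95% intervals from limma, and diamonds leave out EV 1 and KLF2 3. The intervals of the 9 genes include 0, that of IGFBP4 reaching from -1.49 to 0.00034, while the interval of KLF2 runs from 0.28 to 1.72.

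The makeup of the binding protein transcripts was compared as the share of each gene in the summed TPM of the 5 IGFBPs. IGFBP2 made up 60.0%, 52.9% and 54.7% of the sum (EV 1 to 3) against 40.8%, 51.5% and 61.2% (KLF2 1 to 3). IGFBP4 made up 16.3%, 15.8% and 12.02% (EV 1 to 3) against 9.71%, 10.1% and 12.3% (KLF2 1 to 3). The IGFBP4 groups met only where KLF2 3 lay above EV 3. IGFBP3 took 9.93% to 15.7% in EV libraries, and 24.9%, 19.5% and 9.96% in KLF2 1 to 3. Differences in mean share, KLF2 minus EV, were -4.65 percentage points for IGFBP2, -4.02 for IGFBP4, 5.10 for IGFBP3, 2.29 for IGFBP5 and 1.29 for IGFBP7. Without KLF2 1 they were 0.52 for IGFBP2, -3.53 for IGFBP4, 1.71 for IGFBP3, 0.859 for IGFBP5 and 0.444 for IGFBP7. Exact two-sided permutation tests gave p from 0.2 to 0.5, each 0.5 after adjustment over the 5 shares, which sum to a whole and are not independent. With 3 against 3 such a p cannot go below 0.1, so these tests could not pass 0.05. The summed level was 147, 103 and 99.2 TPM (EV 1 to 3) against 81.2, 81.9 and 122.5 TPM (KLF2 1 to 3) (exact two-sided permutation p = 0.5).

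**Figure D4:**
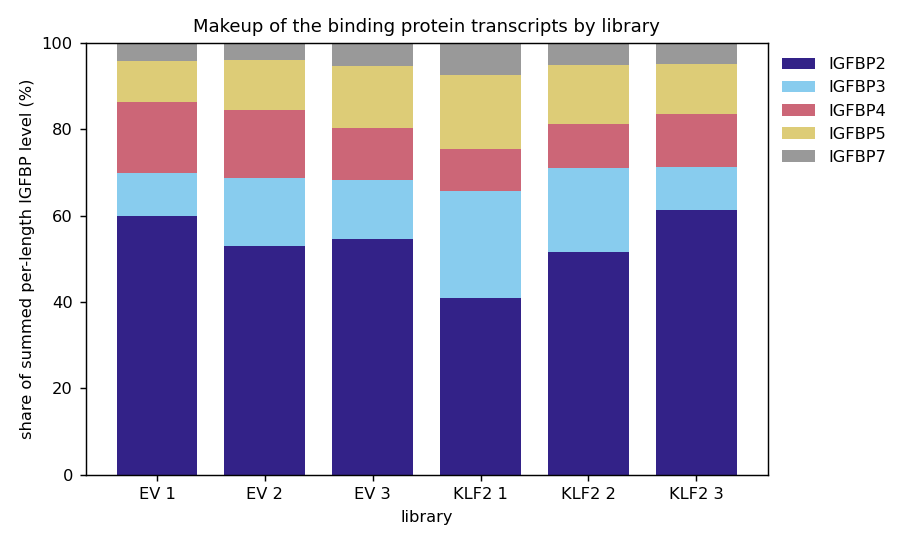
Share of each of 5 binding proteins in their summed level per gene length, by library, as stacked bars in percent from 0 to 100. IGFBP2 is the largest part in each library, from 40.8% in KLF2 1 to 61.2% in KLF2 3.

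Ratios within a library were compared for pairs chosen after their values were seen. IGF1R was 1.81 ± 0.31 times as abundant per length as INSR in EV libraries and 1.83 ± 0.37 times in KLF2 libraries (SD, n = 3), a log2 difference of 0.011. The ratio of IGFBP4 to IGFBP3 was 1.64, 1.01 and 0.892 (EV 1 to 3) against 0.390, 0.517 and 1.23 (KLF2 1 to 3). KLF2 3 lay among the EV libraries. Over 5 such ratios, the exact two-sided permutation tests gave adjusted p from 0.667 to 0.9, and they too could not pass 0.05.

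Across libraries the genes fell into patterns that crossed the groups. By normalized count, EV 1 and KLF2 3 were the 2 highest libraries for IGF1R, IGFBP2, IGFBP5 and IGFBP7, and the 2 lowest for IGF2R. In TPM only IGFBP2 and IGF2R kept this. For IGF1R, IGFBP5 and IGFBP7 another library was then among the 2 highest. Of the 10893 genes whose mean reached 20, these libraries were the 2 highest for 25.6% and the 2 lowest for 26.4%. The principal component scores and ribosomal RNA shares of EV 1 and KLF2 3 given above moved with these genes, and their part in the levels was not tested. EV 1 and KLF2 3 also had the most KLF2 of their groups, with normalized counts of 1093 and 2412. Within KLF2 libraries, IGF2, IGFBP2, IGFBP4 and KLF2 were each lowest in KLF2 1 and highest in KLF2 3. No other gene of the axis had this order. The scores on the first principal component had it too, at -42.5, -15.6 and 27.1 in KLF2 1 to 3. How many of all genes had this order was not counted, and it was not tested. With EV 1 and KLF2 3 left out the log2 fold change was -0.57 for IGFBP2 and -0.81 for IGFBP4 on 2 libraries a group. In limma these had adjusted p = 0.177 and adjusted p = 0.315. The log2 fold change without EV 1 and KLF2 3 was -0.38 for IGF2 and 0.098 for INSR.

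**Figure D5:**
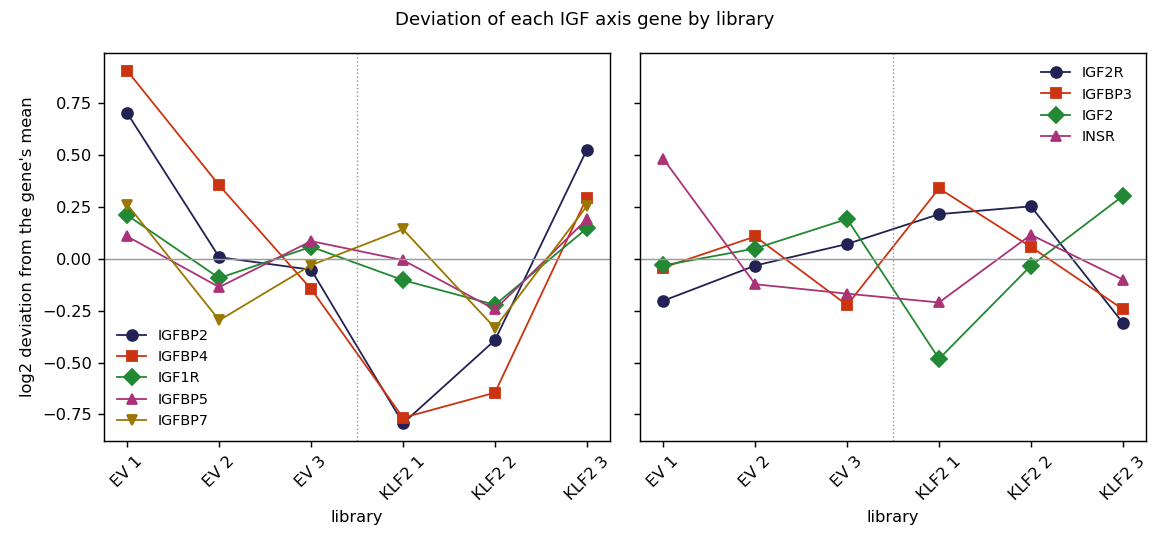
Log2 deviation of each gene from its own mean over 6 libraries; lines only join the points of a gene, and the dotted line parts EV from KLF2 libraries. IGFBP2 and IGFBP4 range widest, from -0.79 to 0.70 and from -0.77 to 0.91, with EV 1 at the top and KLF2 1 at the bottom.

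Likeness was measured as the root mean square difference between 2 genes' log2 deviations over the 6 libraries. Within the axis IGF1R and IGFBP5 were most alike, at 0.064, and IGFBP2 and IGFBP4 differed by 0.22. Among 8084 or 8085 protein-coding genes whose mean reached 100, those nearest to IGF2 were TMEM11, UFD1L and EBAG9, at 0.053 to 0.062 where the median gene stood at 0.32. Nearest to IGF2R were STXBP4, ATG2A and TOP3B, at 0.012 to 0.027 with a median of 0.23. TMEM138, UBTF and GLMP were nearest to IGFBP2, at 0.048 to 0.061 with a median of 0.54. These values describe 6 libraries of 1 line, and the part of the first principal component in them was not tested.

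The rest of the pathway was read from a list of 61 symbols, of which 50 were found and 49 tested. In limma 0 members passed higher and 0 lower, and 22 were higher and 27 lower in mean, with a median log2 fold change of -0.0085. At an unadjusted p under 0.05 there was 1 of 49, beside 2.11% of all tested genes. That gene was IGFBP1, a binding protein that insulin represses in mammalian liver. It had normalized counts of 2.96, 6.12 and 1.91 (EV 1 to 3) against 11.2, 11.4 and 9.55 (KLF2 1 to 3). Its groups did not overlap, with KLF2 libraries higher, as in 3.39% of all tested genes. Its log2 fold change was 1.43 (95% interval 0.20 to 2.65, SE 0.57) with adjusted p = 0.962 in limma, at a mean level of 0.51 TPM. In edgeR the list's count at an unadjusted p under 0.05 was 0 of 45. The filter of edgeR on low counts left IGFBP1 out, so that count gives no result for it. The list's count was 0 of 49 in DESeq2, and also 0 of 49 without EV 1, without EV 3 or without KLF2 1. Without KLF2 3 it was 6 of 49, beside 2081 of 16996 genes. Without EV 1 and KLF2 3 it was 3 of 49, beside 1712 of 17061 genes. On the list the groups also did not overlap for PIK3R2 and PIK3R3, lower in KLF2 libraries, and PTPN2, higher. Over all tested genes the share without overlap was 6.65% in either direction. IGFBP1 lies tail to tail with IGFBP3, with 577 bases between them.

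Upstream of the PI3K and AKT kinases the insulin receptor substrates differed widely in level. IRS4 stood at 142 ± 18.5 TPM, IRS1 at 5.79 ± 0.95 TPM and IRS2 at 0.11 ± 0.066 TPM (SD over 6 libraries). Per length IRS4 was 18.0 to 34.9 times as abundant as IRS1, a pair singled out after its values were seen. IRS4 normalized counts were 3499, 4103 and 3906 (EV 1 to 3) against 4361, 3919 and 3313 (KLF2 1 to 3), a log2 fold change of 0.0046 (SE 0.15). IRS1 had a log2 fold change of -0.31 (SE 0.19). In mean 7 of 9 tested adaptors were lower, where 50.9% of all tested genes were. The median log2 fold change of the adaptors was -0.045. GRB2, which links receptors to the RAS route, was the most abundant adaptor at 243 TPM, with a log2 fold change of 0.05 (SE 0.15).

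The kinase and growth control groups had median log2 fold changes near 0. In the PI3K and AKT group 6 of 13 genes were higher and 7 lower, with a median of -0.0061. Farthest from 0 in this group, picked after their values were seen, were the lipid phosphatase gene INPPL1 at -0.67 (SE 0.35) and AKT2 at -0.55 (SE 0.39), with adjusted p = 0.962 in limma for each. In the mTORC1, FOXO and GSK3 group 5 of 11 were higher and 6 lower. EIF4EBP1, a repressor of translation that mTORC1 inactivates, led at 475 TPM with a log2 fold change of 0.02 (SE 0.17). The receptor phosphatases were higher in mean in 3 of 3, led by PTPN2 at 246 TPM with a log2 fold change of 0.16 (SE 0.13). PTPN1 had a log2 fold change of 0.055 (SE 0.15). PTPRF, at only 0.049 TPM, had 0.26 (SE 0.83). For growth hormone input, JAK2 led at 78.9 TPM with a log2 fold change of 0.03 (SE 0.17).

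Among proteases that cut binding proteins and their inhibitors, HTRA1, a secreted serine protease known in humans to cleave IGFBP5, led at 338 ± 35.7 TPM (SD over 6 libraries). Its log2 fold change was -0.14 (SE 0.14). STC2, which inhibits PAPPA in humans, stood at 157 TPM, and PAPPA itself at 0.033 TPM, too low for testing. PAPPA2, in the same group of the list, was tested and stood at 2.70 TPM with a log2 fold change of -0.22 (SE 0.40). IGF2BP1, IGF2BP2 and IGF2BP3, which bind IGF2 mRNA, were each lower in mean in KLF2 libraries, with log2 fold changes of -0.35, -0.16 and -0.04. IGF2BP3 was the most abundant at 23.3 TPM. None of these values passed the threshold.

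The authors' deposited table listed log2 fold changes of -0.73 for IGFBP4, -0.37 for IGFBP2, -0.16 for INSR and 0.13 for IGF2R. In the authors' deposited table the p-value for IGFBP4 was 0.0510, the lowest of the 9 genes, and the adjusted p was 0.9999 for each of the 9. For KLF2 the authors listed a log2 fold change of 1.04, with p = 0.00030 and adjusted p = 0.9999. DESeq2 on the recovered reads returned nearly the same values for these genes, so the authors' values and the DESeq2 alternative are not separate results.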

How the data were processed

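Poly(A)-selected RNA of 6 wells was sequenced, and per the submitters' processing notes reads were handled with featureCounts 1.5.0-p3, StringTie 1.3.3b, HISAT2 2.0.5 and fastp on the build GRCg7b. Which software did the normalization and the authors' test is not given in these sources. DESeq2 on the recovered reads gave nearly the same values as the authors' table for the genes of the axis and for KLF2. For IGFBP4 the log2 fold change was -0.72996, with an unadjusted p of 0.05098, in DESeq2 and in the authors' test alike. The DESeq2 alternative is therefore not independent of the authors' test. The authors deposited a signal, the normalized count of a gene in a library, and per the file headers the authors' table also holds a log2 fold change, a p-value, an adjusted p and a gene length. Dividing a library's deposited signal by its smallest value above 0 gave whole numbers for 100% of genes (tolerance 1e-06), and these were taken as the reads.

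Main test: robust limma-trend (limma 3.58.1, R 4.3.3) on log2(normalized count + 1) for genes whose EV or KLF2 mean reached 1, two-sided, Benjamini-Hochberg over all tested genes, threshold 0.05. Fold changes on this scale understate those of low genes. The method was tested on simulated data. There 23 of 150 genes changed 1.5-fold and 92 of 150 changed 2-fold passed the threshold, as did 23 unchanged genes over 3 runs. The simulation drew each gene independently, so it held no component shared between genes. The recovered reads were also tested with DESeq2 1.42.0 and with edgeR 4.0.16. TPM were computed from recovered reads and deposited lengths. Other alternatives were normalization, filter, pseudocount, replicate block and left-out libraries.

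Genes named were the 9 of the axis, KLF2, per pathway group the most abundant gene and those at an unadjusted p under 0.05, and the 3 most alike genes of the top ligand, receptor and binding protein. The pathway list was matched by exact symbol. For 1 gene of the list, counted in its totals, no values are reported here. Named besides, after their values were seen, were IRS1, IRS2, IRS4, INPPL1, AKT2, PIK3R2, PIK3R3, PTPN1, PTPRF, STC2, PAPPA, PAPPA2, IGF2BP1, IGF2BP2 and the overlapping genes. Members, lists and the choice to leave out EV 1 and KLF2 3 were made with earlier results of these data known.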

Additional observations from a re-analysis of the deposited data

How the results depend on the processing

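No gene of the axis and no pathway list member passed the threshold under any of 14 alternatives. Of 126 fold changes of the 9 genes, 116 kept their sign. Leaving out each library alone gave IGF2 -0.33 to 0.065, INSR -0.24 to 0.0805, IGFBP3 -0.040 to 0.25, IGFBP5 -0.14 to 0.073 and IGFBP7 -0.094 to 0.22. IGFBP4 ranged from -1.08 to -0.48 and IGFBP2 from -0.81 to -0.15 in this way, and IGF2R from 0.0080 to 0.29. IGFBP5 was 0.023 under quantile normalization, and INSR was 0.098 without EV 1 and KLF2 3. Without this pair of libraries the count over all genes went from 0 to 4, with KLF2 among them (log2 fold change 0.93, adjusted p = 0.0184 in limma, range over the alternatives 0.0184 to 1.00), and the cause was not tested. Leaving out each library alone left the count over all genes at 0, and leaving out KLF2 3 took the genes at an unadjusted p under 0.05 from 354 to 2081. Without KLF2 3 alone IGFBP2 was -0.81 and IGFBP4 -1.08, with unadjusted p of 0.0020 and 0.0029 in limma (adjusted p = 0.327 and adjusted p = 0.329). When each library was left out, the difference in share ran from -9.66 to 0.52 percentage points for IGFBP2, 1.71 to 9.19 for IGFBP3, -5.36 to -3.23 for IGFBP4, 0.859 to 3.61 for IGFBP5 and 0.444 to 1.76 for IGFBP7, nearest 0 without KLF2 1 except for IGFBP4.

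In the fit with a replicate block 0 genes passed and 228 had an unadjusted p under 0.05. Same-numbered libraries had residual correlations of -0.600, 0.144 and -0.511. EV 1 and KLF2 3 stood apart within their groups on the first principal component, with scores of 38.5 and 27.1. Residuals within groups carry that contrast, so these correlations cannot show whether the numbers pair the wells. Counts of IGFBP7 and IGFBP1 were low, which limits their precision.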

Other observations

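The deposited annotation lists the IGFBP domain (PF00219) for 11 genes, among them IGFBP2, IGFBP3, IGFBP4 and IGFBP7 but not IGFBP5. Of the 11 genes, 7 are not among the 9 genes of the axis. IGFBP1 and HTRA1, described above, are among these 7. They were chosen from the annotation after the main results were seen. All 7 were tested in limma, 0 passed, 1 (IGFBP1) had an unadjusted p under 0.05, and 3 were higher and 4 lower in mean in KLF2 libraries, with a median log2 fold change of -0.07. HTRA1 and CCN2, a matricellular protein of the CCN family, were more abundant per length than any classical IGFBP, at 338 ± 35.7 and 271 ± 20.4 TPM (SD over 6 libraries). CCN2 had mean normalized counts of 2606 ± 212 in EV and 2482 ± 194 in KLF2 libraries (SD, n = 3). WISP1, another CCN family gene, had normalized counts of 259, 195 and 201 (EV 1 to 3) against 122, 152 and 263 (KLF2 1 to 3). As in IGFBP2, KLF2 1 and KLF2 2 lay below the EV libraries and KLF2 3 did not. This held for IRS1 and AKT2 of the pathway list as well, and how many of all genes shared it was not counted. The log2 fold change of WISP1 was -0.35 (SE 0.28), and -0.53 without EV 1 and KLF2 3. HTRA3, a relative of HTRA1, stood at 65.5 ± 9.91 TPM (SD over 6 libraries) with a log2 fold change of 0.12 (SE 0.17).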
